A study of Mus musculus with 12 samples.

Results

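The data described here are 1547 regions of the mouse genome in which DNA methylation differed between arsenite-line and control-line liver tumors. They are all entries of the authors' deposited table for that comparison, with both signs kept and no threshold added. They make up 1547 of the 1711 regions deposited for 3 liver comparisons, next to 107 regions for normal liver and 57 for non-tumor liver.

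Group AATt held 3 liver tumor samples of the arsenite line. Group CCTt held 3 liver tumor samples of the control line, deposited earlier in another series and not analysed individually here. The animals were second-generation (F2) males of the strain C3H/HeN, and those of the arsenite line descended from an F1 generation exposed to arsenite in the womb. The label age of the AATt samples was 74 weeks. The AATt samples carry the numbers 5, 9 and 13, as do the non-tumor samples AATn of the arsenite line, and no label says whether equal numbers mark the same mouse. Nor does a label say whether the 3 samples in each group are from 3 mice, and the F2 males are not described as treated themselves. The tissue labels could not be checked against marker genes, because the files hold methylation differences and no expression. Methylation was read by reduced-representation bisulfite sequencing (RRBS), in which the enzyme MspI cuts at CCGG and the short fragments are bisulfite converted.

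Cytosine methylation at CpG dinucleotides is copied to the daughter strand when cells divide. In mammalian tissue most CpGs are methylated, while CpG-dense stretches at gene starts are usually not. Liver tumors commonly gain methylation at some CpG-dense stretches and lose it over much of the remaining genome. The strain C3H is known for frequent spontaneous liver tumors in ageing males.

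Each entry gives a region, the group difference in percentage points, how many CpG sites it holds, how many of them were called differentially methylated (DMCs), and the nearest transcription start site (TSS) with its gene. A positive difference was taken to mean that arsenite-line tumors were the more methylated ones. No source used here defines that sign, and if it is reversed, every direction below turns over. No value per sample exists in these lists, so no difference carries a replicate error. Tests below count regions of 1 list, not mice, and intervals on shares are exact 95% Clopper-Pearson intervals that cover counting error only. The tumors were bulk tissue, so a different mix of cell types and a different methylation within a cell type cannot be told apart.

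Reference sequences of 6 regions that overlap a promoter window are printed here. They come from RefSeq promoter windows of GRCm38.p6 and run 5′ to 3′ on the strand of the gene that owns the window, and every CG is in capitals. The regions of 2210016F16Rik (chr13:58385276-58385370, minus strand), Ccdc110 (chr8:45934483-45934668, plus strand) and Txk (chr5:72736553-72736652, minus strand) were shown because they were among the regions named for their difference within 1 kb of a TSS, were at most 300 bp long and overlapped a promoter window. Those of Tmem54 (chr4:129105356-129105597, plus strand), Zfp263 (chr16:3743849-3744148, plus strand) and Usp20 (chr2:30995694-30995876, minus strand, in the window of Gm39786) were added after their values were seen. The stretches for Ccdc110, Txk, Tmem54 and Zfp263 are the parts of longer regions that fall in the window. These 6 regions are not typical of the list. They held 7 to 77 CpG sites, against a median of 4 over all 1547 regions. The median distance to the listed TSS was 32379 bp over the list, and the Usp20 region lay 13416 bp from its listed TSS.
2210016F16Rik: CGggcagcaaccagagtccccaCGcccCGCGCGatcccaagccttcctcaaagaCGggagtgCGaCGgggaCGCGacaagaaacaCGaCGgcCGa
Ccdc110: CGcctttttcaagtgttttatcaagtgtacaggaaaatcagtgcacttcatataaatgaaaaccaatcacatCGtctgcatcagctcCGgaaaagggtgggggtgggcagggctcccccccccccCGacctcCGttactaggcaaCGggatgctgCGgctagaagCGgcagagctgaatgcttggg
Txk: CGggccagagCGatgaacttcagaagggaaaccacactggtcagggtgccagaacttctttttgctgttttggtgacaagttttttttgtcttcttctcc
Tmem54: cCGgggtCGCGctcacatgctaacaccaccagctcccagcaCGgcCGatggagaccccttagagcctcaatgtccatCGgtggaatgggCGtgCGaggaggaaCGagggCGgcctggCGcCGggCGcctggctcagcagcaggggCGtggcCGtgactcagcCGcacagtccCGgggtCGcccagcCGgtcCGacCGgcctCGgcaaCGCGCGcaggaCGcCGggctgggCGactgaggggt
Zfp263: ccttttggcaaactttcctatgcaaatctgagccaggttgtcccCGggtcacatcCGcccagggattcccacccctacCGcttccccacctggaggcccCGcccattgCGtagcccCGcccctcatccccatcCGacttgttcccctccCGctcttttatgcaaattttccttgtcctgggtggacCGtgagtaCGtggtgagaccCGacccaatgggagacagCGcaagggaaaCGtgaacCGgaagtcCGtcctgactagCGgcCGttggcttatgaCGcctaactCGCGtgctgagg
Usp20: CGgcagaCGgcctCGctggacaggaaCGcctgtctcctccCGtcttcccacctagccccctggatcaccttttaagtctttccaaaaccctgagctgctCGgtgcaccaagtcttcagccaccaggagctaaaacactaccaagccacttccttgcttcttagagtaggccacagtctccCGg
The 95 bases of 2210016F16Rik hold 13 CG pairs, against 2 in the 100 bases of Txk. The authors' deposited table lists 25 CpG sites for 2210016F16Rik, which is more than 13 and fewer than the 26 cytosines that both strands of these pairs hold. For Usp20 it lists 12 sites, where the printed 183 bases hold 7 CG pairs. In all 9 tumor regions that lay wholly inside a promoter window, the listed sites exceeded the CG pairs of the reference and never exceeded 2 per pair. Such counts need both strands, unless the strain C3H/HeN holds CpGs that the reference lacks, and a pair of DMCs can then be the 2 strands of 1 CpG. Of the 1547 tumor regions, 31 overlapped any of the 32851 promoter windows of 300 bases, and 19 of these were positive.

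Positive differences made up 1063 of the 1547 regions, or 68.7% (66.3% to 71.0%), and 484 were negative. The authors' deposited table holds no difference smaller than 20.0003 points in size, so smaller changes were not seen. Many values lay close to that limit. A total of 559 regions (36.1%) were below 22 points. At the other end, 449 regions reached 25 points, 127 reached 30 points (76 positive, 51 negative) and 9 reached 40 points (5 positive, 4 negative). The regions were short, with a median of 139 bp (5 to 1694 bp) and a median of 4 CpG sites (3 to 185). Together they held 10417 CpG sites, of which 4630 (44.4%) were DMCs. A region had a median of 2 DMCs, 550 regions (35.6%) had 1, and in 29 regions, 21 of them positive, every listed site was a DMC.

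**Figure D1:**
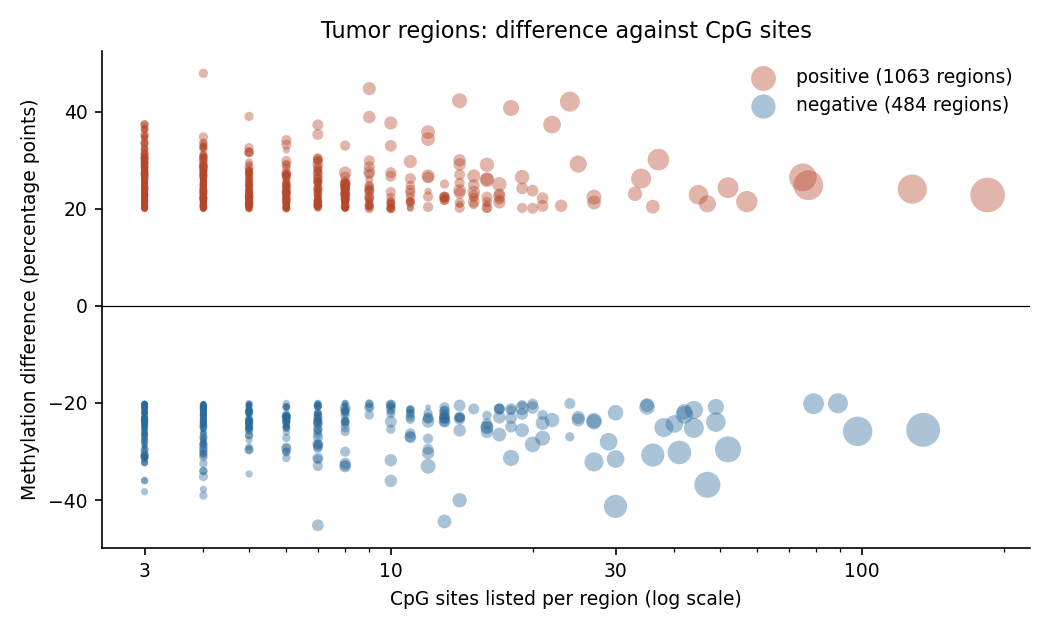
Each point is 1 tumor region, with its CpG sites on a log axis and its difference between arsenite-line and control-line tumors in percentage points on the vertical axis, and point area grows with the number of DMCs. Red points are the 1063 positive regions and blue points the 484 negative ones. No point lies between -20 and 20 points, the positive points crowd at 3 to 9 sites, and the largest DMC numbers stand at the right in both colours.

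The largest positive difference in the authors' deposited table was 47.9 points near Tyrp1, which encodes an enzyme of melanin synthesis. All 4 sites of that region were DMCs, and it lay 30870 bp downstream of the TSS, outside any gene span. Colgalt2, a collagen galactosyltransferase gene, followed in that table with 44.7 points over 9 sites that were all DMCs, inside the gene span. Both regions combined a large difference with DMCs at every site, but neither was near its listed TSS. BC048507 had 42.3 points (12 of 14 sites DMCs) according to the authors' deposited table, 357 bp downstream of its TSS. The region of Dusp6, which encodes a phosphatase that inactivates ERK, had 42.1 points (22 of 24 sites) but lay 58831 bp upstream. Foxi2, a forkhead factor gene, had 40.7 points (14 of 18 sites) inside its span, at chr7:135411842-135411960. The next 5 regions in that table were near Mir3090 (39.0 points), Gm6260 (38.9 points), Cnksr2, a scaffold gene of RAS signalling (37.6 points), Uqcc2, an assembly factor gene of respiratory complex III (37.4 points), and Fam173b (37.4 points). Of the 10 leading positive regions, those of Colgalt2, BC048507 and Foxi2 lay inside the span of the listed gene.

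The largest negative difference in the authors' deposited table was -45.2 points at Pik3c3, which encodes the class III phosphatidylinositol 3-kinase of autophagy. This region lay 3409 bp upstream of the listed TSS but inside the RefSeq span of the gene. All 7 sites were DMCs. Gm15446 followed in that table with -44.4 points (10 of 13 sites), 26176 bp upstream of its TSS. The third was the region near Zfp747, a zinc finger gene, at chr7:127363777-127364360, with -41.3 points in the authors' deposited table. It held 30 sites, all of them DMCs, more than any other region of the list in which every site was a DMC. It lay 11690 bp downstream of the TSS and outside any gene span. Mir5127 (-40.03 points, 11 of 14 sites), Chd5, a chromatin remodeller gene (-39.1 points), and Unc5d, a netrin receptor gene (-38.3 points), came next in that table. Gm16880 (-36.9 points), H2afy2, the macroH2A2 histone gene (-36.1 points), and Lrfn2, a synaptic adhesion gene (-36.0 points), were also among the 10. The Gm16880 region held 38 DMCs among 47 sites, whereas those of Chd5, Unc5d and H2afy2 rested on 3 or 4 sites. The H2afy2 region lay inside the span of the collagen gene Col13a1, 95756 bp from the listed TSS.

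Regions with many CpG sites did not share the prevailing direction. Among the 203 regions with 10 or more sites, 99 were positive (48.8%, 41.7% to 55.9%), against 71.7% (69.2% to 74.1%) of the 1344 regions with fewer. This difference passed Fisher's exact test over regions (two-sided, odds ratio 0.375, adjusted p = 1.12e-09 over 5 contrasts of sign). All 5 contrasts of sign were chosen with earlier results of these data known. Their p-values describe the list and are no independent evidence. By class, the positive share was 75.0% at 3 sites, 71.2% at 4, 68.6% at 5 to 6 and 68.6% at 7 to 9. It was 52.5% at 10 to 14 sites, 49.3% at 15 to 29 and 36.4% (20.4% to 54.9%) in the 33 regions with 30 or more. If both strands were counted throughout, 10 sites can stand for as few as 5 CpG pairs. Positive regions were more numerous but held fewer sites, with a mean of 5.95 sites against 8.46 in negative regions. The 484 negative regions held 39.3% of the listed sites. Median size of the difference hardly varied with the number of sites, at 23.3 points for 3 sites and 24.04 points for 30 or more.

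Regions far from the listed TSS were positive more often. Beyond 100 kb from the listed TSS, 296 of 368 regions were positive (80.4%, 76.0% to 84.4%), against 65.1% (62.3% to 67.8%) of the 1179 nearer ones (odds ratio 2.21 with adjusted p = 3.13e-08 in Fisher's two-sided exact test over regions). The share went in steps with distance, at 50% within 1 kb, 59.2% at 1 to 5 kb, 65.0% at 5 to 10 kb, 66.3% at 10 to 50 kb, 70.7% at 50 to 100 kb, 79.1% at 100 to 500 kb and 89.4% beyond 500 kb. Of the 381 regions within 10 kb, 77 had 10 or more sites, against 34 of the 368 beyond 100 kb, so both properties were crossed. Within 10 kb of a TSS, 30 of the 77 regions with 10 or more sites were positive (39.0%, 28.05% to 50.8%), against 64.8% (59.1% to 70.2%) of the 304 with fewer. From 10 to 100 kb the shares were 50% of 92 regions and 70.0% of 706, and beyond 100 kb they were 67.6% of 34 regions and 81.7% of 334. The positive share was lower for CpG-rich regions in each distance class and higher at distance in each CpG class. The cross was not tested.

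**Figure D2:**
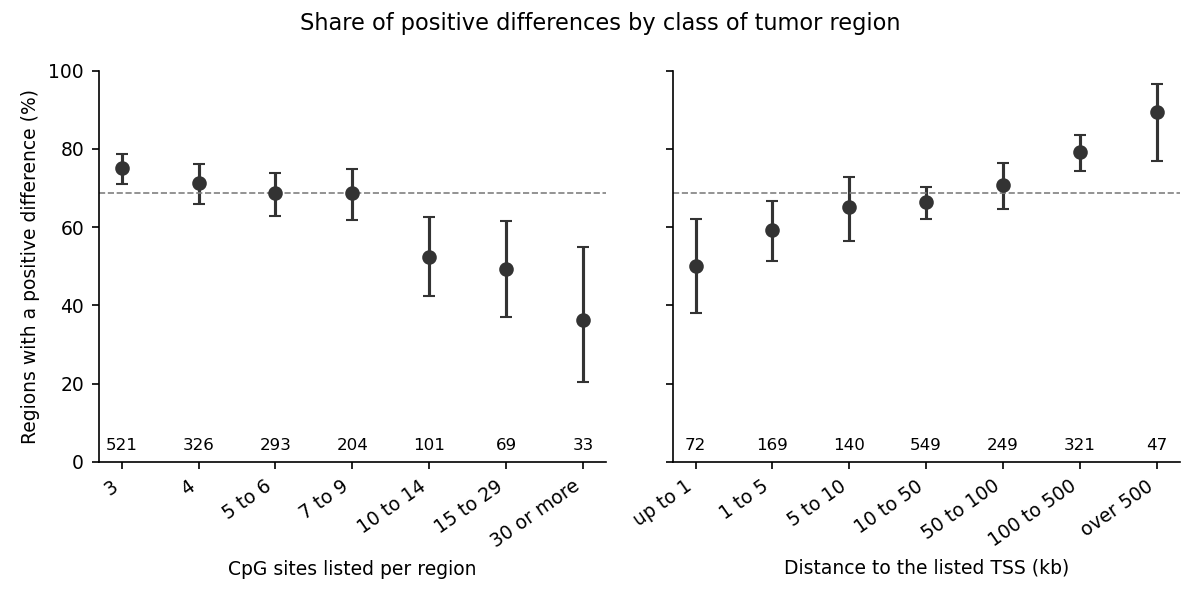
Share of tumor regions with a positive difference (%), by the number of listed CpG sites on the left and by distance to the listed TSS in kb on the right. Points are shares, bars are exact 95% intervals of counting error, numbers at the bottom are regions per class, and the dashed line is the share of the whole list, 68.7%. The share is 75.0% at 3 sites and 36.4% at 30 or more, and 50% within 1 kb and 89.4% beyond 500 kb.

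The other 3 contrasts of sign were smaller. Inside a gene span, 65.4% of 852 regions were positive, against 72.8% of 695 regions outside any span (odds ratio 0.705 with adjusted p = 0.00335 by Fisher's exact test over regions). With at least 25 points required, this contrast did not pass (odds ratio 0.679 with adjusted p = 0.113 by Fisher's exact test, range 0.00384 to 0.113 over 5 alternatives). Its direction held for regions with fewer than 10 sites, at 68.1% of 720 inside against 76.0% of 624 outside. With 10 or more sites it turned, at 50.8% of 132 (41.9% to 59.6%) against 45.1% of 71 (33.2% to 57.3%). This cross was not tested either. Regions with 2 or more DMCs were positive in 66.8% of 997 cases, against 72.2% of 550 regions with 1 DMC (odds ratio 0.775 with adjusted p = 0.0370 by Fisher's exact test). That call was lost with at least 25 points (adjusted p = 0.557, Fisher's exact test) and with 1 region per gene (adjusted p = 0.0930). The classes behind it ran from 72.2% at 1 DMC and 73.0% at 2 to 53.1% at 5 to 9 and 41.0% of 61 regions at 10 or more. On chromosome X, 44 of 72 regions were positive (61.1%, 48.9% to 72.4%), against 68.9% of 1462 autosomal regions, and the test did not separate them (odds ratio 0.708 with adjusted p = 0.193 by Fisher's exact test).

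By chromosome, the most regions lay on chromosome 5 (149, 75.2% positive), chromosome 2 (128, 78.9%) and chromosome 1 (115, 67.0%). Per 100 protein-coding genes of the RefSeq table, chromosome 5 held 11.7 regions and chromosome 7 held 4.33. Chromosome 17 was the only one with more negative (33) than positive (32) regions, a positive share of 49.2% (36.6% to 61.9%). Chromosome 18 had 55.3% positive (40.1% to 69.8%), and on chromosome Y 11 of 13 regions were positive. The shares of single chromosomes were not tested. The number of regions the authors could have called per chromosome is not given in the sources used here.

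**Figure D3:**
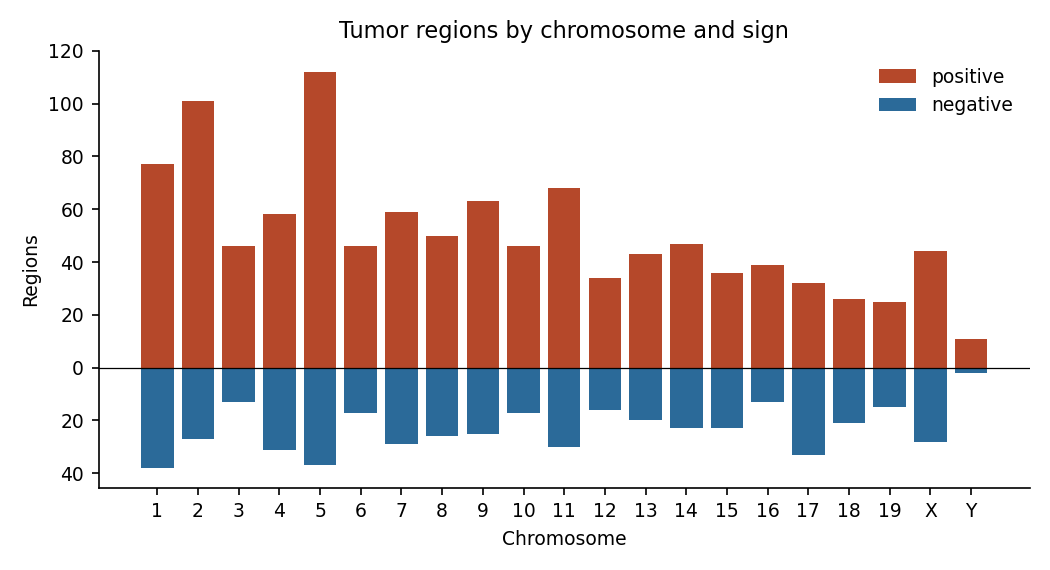
Number of tumor regions per chromosome, with positive differences above the axis in red and negative differences below it in blue. Chromosome 5 has the tallest column, with 112 positive and 37 negative regions, and chromosome 17 has 32 positive and 33 negative.

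Near gene starts the 2 directions were balanced. Of the 72 regions within 1 kb of the listed TSS, 36 were positive and 36 negative, and 11 regions of the list lay across a TSS. The leading positive one was BC048507, and 2210016F16Rik came next in the authors' deposited table, with 29.2 points (16 of 25 sites DMCs) over the 95 bases printed above. Il6, which encodes a cytokine that drives the hepatic acute phase response, had 26.8 points in that table at chr5:30013370-30013425, 210 bp downstream of its TSS, with 2 of 3 sites DMCs. Ccdc110 had 25.9 points across its TSS (11 of 16 sites). The other 6 were Gm5134, Gprasp1, Rgs11, 3110015C05Rik, Abca12 and Acot10, at 25.6 to 28.02 points in the authors' deposited table. Except for BC048507, 2210016F16Rik and Ccdc110, these positive regions held 3 DMCs or fewer.

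Among the negative regions within 1 kb, Htr2a, a serotonin receptor gene, led in the authors' deposited table with -35.1 points over 4 sites that were all DMCs. Xlr4b, a gene of an X-linked lymphocyte-regulated family, had -31.4 points, and Gpx8, which encodes a peroxidase of the endoplasmic reticulum, had -31.2 points (3 of 4 sites DMCs) in that table. Larger in CpG number were Tmem223 at chr19:8770837-8771250 (-30.2 points, 31 of 41 sites) and Tmem54 at chr4:129105356-129106478 (-29.6 points, 38 of 52 sites), both across their TSS. In the authors' deposited table, Txk, the gene of a T cell kinase of the Tec family, had -29.3 points (4 of 7 sites) across its TSS. D030045P18Rik, 1700048O20Rik, Panx2, a pannexin channel gene, and Rab10os completed the 10 at -29.01 to -26.97 points.

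The regions with the most DMCs were spread over both directions, and 3 of the 10 lay across a TSS. Agap3, which encodes an Arf GTPase-activating protein, had 68 DMCs among 185 sites and a difference of 22.8 points in the authors' deposited table, 22067 bp downstream of its TSS and inside the gene. Atcayos followed with 65 of 135 sites and -25.5 points in that table, inside the span of the kinase gene Dapk3. Zfp263, a zinc finger gene, had 50 of 77 sites and 24.8 points across its TSS (chr16:3743739-3744798), and the 300 printed bases of its window hold 20 CG pairs. Mkx, a homeobox gene of tendon development, had 49 of 98 sites and -25.8 points inside its span, Ildr2 had 48 of 128 sites and 24.04 points, and Oprd1, the delta opioid receptor gene, had 43 of 75 sites and 26.5 points in the authors' deposited table. Gm16880, Tmem54, Tmem223 and Zfp747, named above, completed the 10, so that 4 were positive and 6 negative.

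Of the 1347 nearest genes, 1177 had 1 region, 147 had 2, 16 had 3 and 7 had 4. In 11 of the 23 genes with 3 or more regions, all regions were positive. In 12 genes the signs were mixed, and in 0 were all negative. These counts were not tested. They are to be read against 68.7% positive regions over the whole list and 80.4% beyond 100 kb from the listed TSS. Flt1, a VEGF receptor gene, had 4 positive regions inside its span, 10942 to 135612 bp from the TSS, at 22.4, 28.4, 23.1 and 21.0 points in the authors' deposited table. The first and last of these rested on a single DMC. Cdh13, a cadherin gene, had 22.1, 20.5, 20.3 and 26.7 points in 4 regions inside its span, of which 3 rested on 1 DMC. Gpr133, the adhesion receptor gene Adgrd1 in RefSeq, had 24.1, 20.8, 24.3 and 20.5 points, of which the second rested on 1 DMC. The 4 regions nearest to Taf4a, at 27.6, 21.96, 25.8 and 32.4 points in that table, fell in the span of Cdh4, a cadherin gene. The median of all positive regions was 22.9 points, and the last Taf4a value was the only one of these 16 above 30 points.

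Ror2, a receptor gene for Wnt ligands, was the gene of 3 or more regions with the most negative ones. Its 4 regions, all inside the span, had -20.4, -24.7, 23.7 and -30.4 points in the authors' deposited table, and the last lay nearest to the TSS, at 9252 bp. All 3 regions were positive at Ackr3, an atypical chemokine receptor gene (29.2, 27.3 and 21.9 points), and at Tbca, a tubulin folding cofactor gene (28.5, 22.7 and 27.3 points). The same held for Slc10a2, the gene of the ileal bile acid transporter (22.7, 20.6 and 25.5 points in that table), but those regions lay 481564 to 1047936 bp from its TSS. Abca13, Mir6378, 1700028D13Rik and E130006D01Rik also had 3 positive regions each, at 20.04 to 27.5 points. Each Abca13 region rested on a single DMC. The mixed genes included Lhcgr, the luteinizing hormone receptor gene, with -23.0 points at its TSS and 23.8 and 24.6 points farther away in the authors' deposited table. Nfatc2, a transcription factor gene of T cells, had -27.2 points at 1193 bp from its TSS and 23.1 and 20.01 points deeper in the gene. Each positive region of Lhcgr and Nfatc2 rested on a single DMC. So did the regions of Ror2 at -20.4 points, Ackr3 at 27.3 points and Slc10a2 at 20.6 points. The other mixed genes were Adcy1, Adra2c, Agpat9, H2afy2, Itga9, Srrm4, 4933406G16Rik, 1700025C18Rik and Erdr1.

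Pairs of neighbouring regions had equal signs in some cases and opposite signs in others. No run of 3 regions with gaps of at most 10 kb existed, and 29 pairs lay that close. In 18 pairs the signs were equal (13 both positive, 5 both negative), and in 11 they were opposite. These counts were not tested. With 68.7% of all regions positive, regions paired without regard to place would also often differ in sign. Usp20, a deubiquitinase gene, had 34.3 and 25.5 points in 2 regions 655 bp apart in the authors' deposited table, and the first of them is printed above. Pax8, a paired box gene, had -20.3 and -33.1 points 941 bp apart, and Ush1g had -22.7 and -23.9 points 1413 bp apart in that table. Tbx3, a T-box factor gene, had -23.1 points (7 of 18 sites DMCs) and -21.8 points (13 of 42 sites), both upstream and inside the antisense transcript Tbx3os1. Kcng1, a potassium channel gene, had -20.8 points (13 of 35 sites) at its TSS and -20.1 points 4629 bp upstream. Opposite signs stood 539 bp apart inside Auts2 (-21.8 and 25.5 points, listed under Wbscr17) and 4915 bp apart at Zfp263 (24.8 and -20.6 points) in the authors' deposited table. In each of these opposite pairs, 1 region rested on a single DMC. Among the pairs of equal sign, so did the Pax8 region at -20.3 points and the Kcng1 region at -20.1 points.

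The 1547 regions were then read by 22 gene lists, which describe the list and were not tested. By nearest TSS, 462 regions fell in at least 1 list of named genes (predicted and Riken genes left out), and 241 did so by the gene span that holds them. Counts by nearest TSS are given first, to be read against 1063 positive and 484 negative regions (68.7% positive) and a median size of 23.0 points over the whole list. Lists overlap, so a region may count in more than 1. Some members named below without a DMC count rested on a single DMC. Among them were Foxe1, Kremen2, Apcdd1, Erbb4, Dll1, Wwtr1, Plin1, Atf3, Smarca1, Ezh1, Zap70, Ngfr and Sema6d.

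The developmental transcription factors had 63 regions, 46 positive and 17 negative (73.0% positive, median size 23.1 points). Within 10 kb of a TSS lay 20 of them. Besides Foxi2 and Pax8, the authors' deposited table had Lhx4 (28.96 points), Foxe1 (26.6 points), Foxn4 (26.2 points, 6 of 11 sites DMCs), Ebf2 (24.9 points) and Sall2 (23.9 points) on the positive side. Gata2, a factor of blood stem cells, was positive over 36 sites (20.4 points, 10 DMCs). On the negative side stood Irx4 (-20.5 points) in that table. Prdm13 had a region of each sign, at -29.9 points 4627 bp upstream and at 27.4 points 263947 bp downstream of its TSS. Zinc finger genes had 11 positive and 7 negative regions. Zfp647 (-30.3 points, 8 of 12 sites) and Zfp572 (-24.3 points, 22 bp upstream of its TSS) were negative and Zfp691 (27.6 points) positive in the authors' deposited table.

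Among the signalling lists, Wnt pathway genes had 8 positive and 12 negative regions (40% positive, 19.1% to 63.9%; median size 23.98 points), and 2 and 10 by gene span. By nearest TSS, 14 genes supplied the 20 regions, and Ror2 alone 4 of them, 3 of these negative. Negative in the authors' deposited table were the ligand genes Wnt3 (-33.0 points, 2992 bp upstream and inside Wnt9b) and Wnt8a (-20.1 points, 6 of 24 sites), the receptor genes Fzd9 (-23.0 points) and Ror2, and the inhibitor gene Apcdd1 (-24.6 points). Positive were the agonist gene Rspo4 (31.2 points), the regulator gene Dact2 (29.2 points) and Kremen2, a co-receptor gene (25.1 points), in that table. This negative majority was known when the list was drawn up, so it is no independent evidence of a direction. TGF-beta and BMP genes had 5 positive and 6 negative regions. The receptor gene Acvrl1 (-23.96 points), the latent binding protein genes Ltbp2 (-22.7 points) and Ltbp3 (-22.1 points) and the inhibitory Smad6 (-22.6 points) were negative in the authors' deposited table, while Smad7, also inhibitory (36.4 points), and Smad2, a signal transducer (28.1 points), were positive, 55758 and 187232 bp from their TSS.

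Receptor tyrosine kinase, RAS-MAPK and PI3K genes had 19 positive and 12 negative regions. Fgfr1, an FGF receptor gene, had 24.3 points over 52 sites (24 DMCs) 3336 bp upstream in the authors' deposited table, and Fgf15, the gene of the gut hormone that represses bile acid synthesis, had 21.3 points. Dusp9, a MAPK phosphatase gene (-21.3 points), Mapk8ip2, a JNK scaffold gene (-26.9 points), and Erbb4, a receptor gene (-24.1 points), were negative in that table. Notch, Hedgehog and Hippo genes had 4 positive and 2 negative regions by nearest TSS, and 1 and 3 by gene span, so the majority turned. The atypical cadherin genes Fat3 (25.3 points) and Fat2 (22.6 points) and the Hedgehog effector gene Gli3 (20.6 points) were positive, and the ligand gene Dll1 (-20.3 points) and the Hippo effector gene Wwtr1 (-21.9 points) negative, in the authors' deposited table.

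The lists of genes tied to liver and liver cancer come next. How many of their genes were measured is unknown, so their counts do not show how often such genes were called. The list of liver cancer drivers and suppressors had 6 positive and 4 negative regions at 8 genes. Igf2bp3, an oncofetal RNA-binding protein gene (24.9 points, 7 of 15 sites), and Runx1 (24.1 points) were positive, and Il6st, the gene of the IL-6 co-receptor gp130 (-28.99 points, 5 of 7 sites), and Mycn (-25.7 points, 260835 bp from its TSS) negative in the authors' deposited table. Hepatocyte metabolism and secreted proteins had 6 positive and 5 negative regions, among them Kng2, a kininogen gene (26.3 points), Sult2b1, a sulfotransferase gene (26.0 points), and Plin1, a lipid droplet gene (-21.0 points). Nuclear receptors and hepatic factors had 0 positive and 3 negative regions in the authors' deposited table. They were at Rxra, a nuclear receptor partner (-25.8 points, 1 of 3 sites DMCs), Esrrb (-22.9 points, 6 of 14) and Srebf1, a lipogenic factor gene (-20.9 points, 1 of 5). By gene span this list had 2 positive and 3 negative regions. The arsenic metabolism, redox and stress list had 4 positive regions and 1 negative by nearest TSS, and 0 and 1 by gene span. They included Hspa8, a chaperone gene (27.7 points, 35416 bp upstream and inside Clmp), and Atf3, a stress factor gene (22.6 points, 33106 bp upstream), and Gpx8 was the negative one.

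Cell cycle, senescence and DNA repair genes had 10 positive and 5 negative regions by nearest TSS, and 1 and 3 by gene span, so the majority turned. Cenpf, a kinetochore protein gene, had 37.3 points (17 of 22 sites DMCs) 105702 bp from its TSS in the authors' deposited table. Il6 was in this list too. Rbl2, which encodes the pocket protein p130, was negative (-29.5 points), and Cdc5l (29.97 and -27.04 points) and Mmp17 (29.7 and -25.1 points) had 1 region of each sign named in that table. Chromatin regulators had 5 positive and 5 negative regions (0 and 2 by gene span), at Chd5, H2afy2, Hist1h2bc, a histone H2B gene (33.0 points), Smarca1 (24.4 points), the demethylase gene Kdm4c (-23.3 points) and Ezh1 (-20.5 points) among others. Of the 10 regions, those named for Chd5, Hist1h2bc and Ezh1 lay within 10 kb of the TSS. Imprinted genes had 3 positive and 2 negative regions (2 and 3 by gene span), and Dlk1, a paternally expressed gene, was negative over 21 sites (-24.1 points, 10 DMCs) in the authors' deposited table.

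Genes of other cell types in the liver were split as well. Leukocyte markers, antigen presentation and cytokine genes had 32 regions, 22 positive and 10 negative (68.8% positive, median size 23.9 points). Ptprc, the gene of the pan-leukocyte antigen CD45, was negative at all of its 12 sites (-33.0 points, chr1:138136440-138136632, inside the gene) in the authors' deposited table. The antigen presentation gene Cd74 (-23.7 points, 886 bp downstream of its TSS) and the T cell kinase gene Zap70 (-21.9 points) were negative too. Positive in that table were Tnfrsf11a, which encodes RANK (32.9 points), Cxcr1, a chemokine receptor gene (32.4 points), Irf8 (27.8 points), Batf (26.97 points), Irf4 (24.6 points), Cd2 (23.8 points) and Cd8a (22.1 points). Endothelial, stellate and bile duct markers had 7 positive and 4 negative regions, with Flt1, Kdr (25.3 points) and Gpr182 (22.9 points, 21 of 45 sites) against Ngfr, a stellate cell marker (-26.0 points), and Cdh5 (-21.6 points) in the authors' deposited table. The part that cell mixture plays in these values was not tested.

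Neuronal and membrane gene families are given last among the named lists. Axon guidance and synapse genes had 51 positive and 22 negative regions, with Cntnap4 (35.3 points) and Ntn1, a netrin gene (26.99 points, 6 of 14 sites), against Unc5d, Htr2a, Sema6d (-31.6 points) and Slitrk5 (-26.5 points, 10 of 17 sites) in the authors' deposited table. Ion channels and transmitter receptors had 39 positive and 13 negative regions, led by Trpc7 (35.3 and 24.98 points) and Scn10a (34.9 points). Solute carriers and ABC transporters had 29 positive and 9 negative regions, with Slc6a4, the serotonin transporter gene, positive at both regions named (30.6 and 23.2 points) and the peptide transporter gene Slc15a2 negative (-35.9 points) in that table. Cell adhesion and matrix genes had 28 positive and 11 negative regions, including Col13a1 (34.8 points), Cdh20 (-29.7 points) and both Col2a1 regions (-23.5 and -25.1 points) in the authors' deposited table. G protein-coupled receptors named Gpr or Adgr had 12 positive regions and 1 negative, at Gpr50 (-23.7 points), but 8 genes supplied the 13 regions and Gpr133 alone 4 of them. MicroRNA and small RNA genes had 43 positive and 20 negative regions, and 0 of these lay on a microRNA hairpin of the RefSeq table. Predicted and Riken genes had 181 positive and 77 negative regions.

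**Figure D4:**
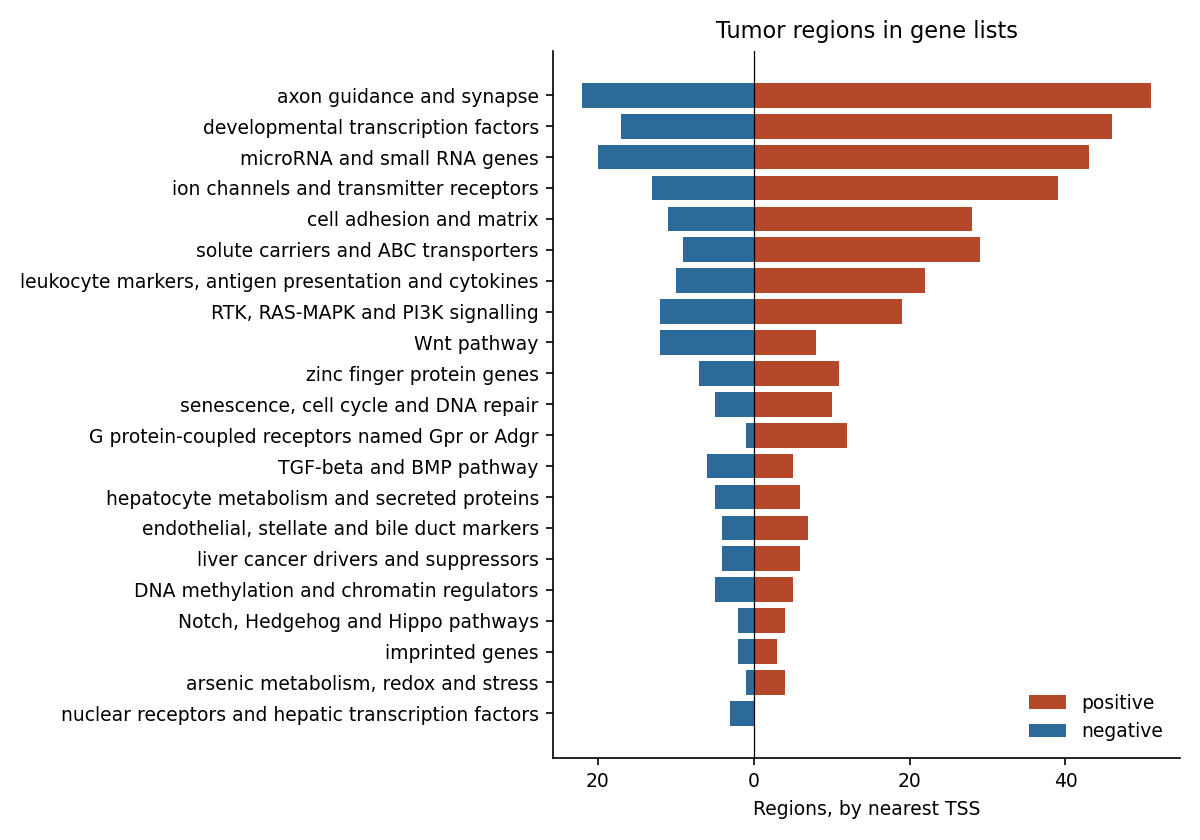
Number of tumor regions per gene list by nearest TSS, without the predicted and Riken genes, with positive regions to the right in red and negative regions to the left in blue. Of the lists drawn, axon guidance and synapse genes have the longest bar (51 positive, 22 negative), and the Wnt pathway (8 and 12), TGF-beta and BMP genes (5 and 6) and nuclear receptors (0 and 3) are the lists with more negative than positive regions.

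The kind of nearest gene made little difference to the sign. Of 1264 regions next to protein-coding genes 68.9% were positive, of 195 next to long noncoding RNA genes 68.7%, and of 60 next to microRNA genes 66.7%.

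The tumor and non-tumor lists rest on arsenite-line samples of equal numbers, so they may share mice, and regions of different lists were tested as if independent. The contrasts between lists were also chosen with earlier results of these data known. Against the other liver comparisons, the tumor list was richer in regions with several DMCs. A single DMC supported 35.6% of the 1547 tumor regions, against 66.4% of the 107 normal liver regions (odds ratio 0.280 with adjusted p = 4.30e-09 by Fisher's exact test over regions, adjusted over 6 contrasts) and 52.6% of the 57 non-tumor regions (odds ratio 0.496 with adjusted p = 0.0221 by Fisher's exact test). On autosomes alone the second contrast did not pass (Fisher's exact test, adjusted p = 0.0522, range 0.0132 to 0.0522 over 4 alternatives). Regions of 10 or more CpG sites made up 13.1% of the tumor list, against 2.80% in normal liver (odds ratio 5.24 with adjusted p = 0.00207 by Fisher's exact test) and 15.8% in non-tumor liver (odds ratio 0.806 with adjusted p = 0.550 by Fisher's exact test). The first of these was not called with at least 2 DMCs (adjusted p = 0.177) or at least 25 points (adjusted p = 0.498, Fisher's exact test). Inside a gene span lay 55.1% of tumor regions, against 66.4% in normal liver (odds ratio 0.622 with adjusted p = 0.0398 by Fisher's exact test) and 68.4% in non-tumor liver (odds ratio 0.566 with adjusted p = 0.0681 by Fisher's exact test). The contrast with normal liver was lost under 3 of 5 alternatives (Fisher's exact test, adjusted p of 0.0309 to 0.498).

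Overlap was counted against other lists of 107 and 57 regions, and these sizes limit its share of the tumor list. The regions measured in each comparison are unknown, so no expected overlap was computed. Of the tumor regions, 11 overlapped a region of the normal liver list by at least 1 bp, which is 0.711% of the tumor list and 10.3% of the normal list. A further comparison gave 4 that overlapped the non-tumor list, 0.259% of the tumor list and 7.02% of that list. Signs were equal in 5 of the 11 and in 3 of the 4. Of all regions, 30.8% were positive in the normal list and 59.6% in the non-tumor list, against 68.7% in the tumor list. With majorities of opposite sign in the tumor and normal lists, these counts do not show reversals particular to single genes. Htr2a had -35.1 points in tumors and -22.4 points in normal liver in the authors' deposited tables. Aym1 had 30.4 points in tumors and 21.6 points in normal liver, and Slfnl1 had 23.3 points in tumors and 27.2 points in normal liver. Opposite signs stood at Mfsd9 (-25.9 points in tumors, 21.8 points in normal liver), Mlana (-27.2 points in tumors, 22.1 points in normal liver) and Gm9199 (32.7 points in tumors, -22.9 points in normal liver) in these tables. Signs were also opposite at Pcsk2os2 (21.95 points in tumors, -21.1 points in normal liver) and Gm5936 (-23.1 points in tumors, 21.7 points in normal liver), while 4933406G16Rik (-20.4 points in tumors, -20.1 points in normal liver) and Prps1 (-20.2 points in tumors, -20.6 points in normal liver) were negative in both of the authors' deposited tables. The region near Dact2 had 29.2 points in tumors, 21.1 points in non-tumor liver and -24.8 points in normal liver. The largest contrast was at Gm15446, with -44.4 points in tumors (10 of 13 sites DMCs) and 21.2 points in non-tumor liver (3 of 4 sites) in the authors' deposited tables. Ccdc110, printed above, was positive in both tables, with 25.9 points in tumors and 20.04 points in non-tumor liver, and G530011O06Rik was negative in both, with -23.8 points in tumors and -24.5 points in non-tumor liver. The normal and tumor lists each rest on control samples of the earlier deposit, and whether the sign has the same meaning in every list is not given in the sources used here.

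**Figure D5:**
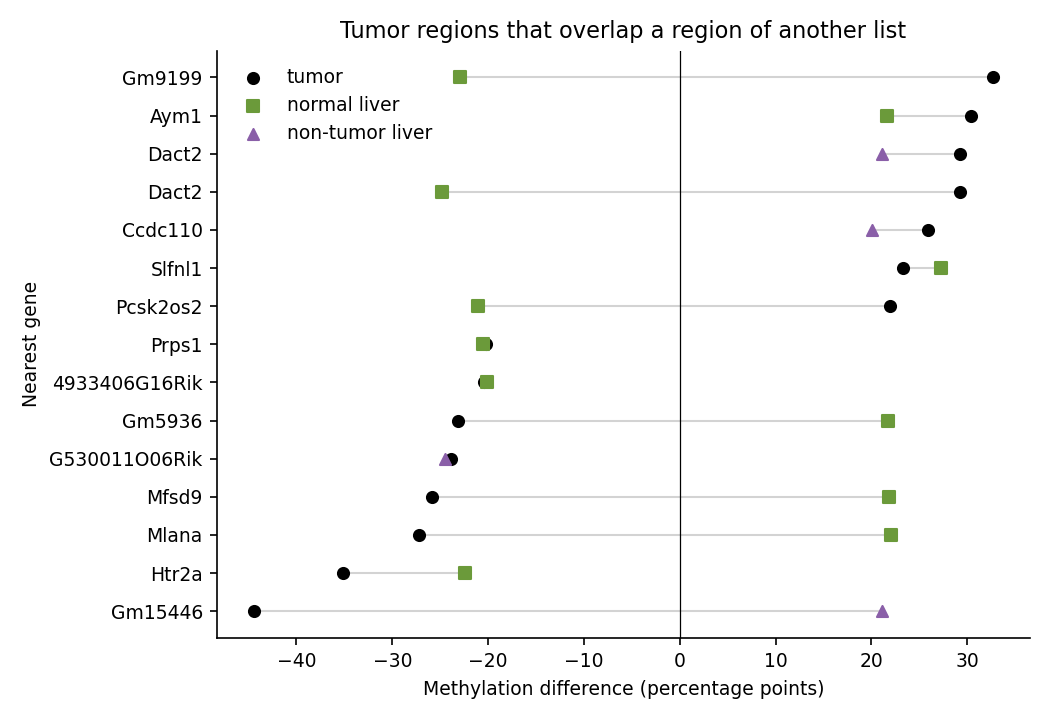
Methylation difference (percentage points) at the tumor regions that overlap a region of another list, labelled by nearest gene. Black circles are the tumor values, green squares normal liver and purple triangles non-tumor liver, with a grey line joining each pair. Pairs on the same side of 0 have equal signs, as at Htr2a, and the Gm15446 pair spans -44.4 points in tumors to 21.2 points in non-tumor liver.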

How the data were processed

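Libraries were made by RRBS from liver DNA, per the labels' protocols. Trim Galore, Bismark, methylKit and bedtools 2.25.0 on build mm10 are named in the submitters' processing notes. The sources used here do not give the region caller, its thresholds, the coverage minimum or the depth per sample, so no detection limit is stated, and the share of measured regions that were called is unknown. The authors' deposited tables give, per region, a signed methylation difference in percentage points, CpG sites, DMCs and the distance to the nearest TSS. These values are differences between whole groups of 3 samples, and no other per-sample column was used.

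Region coordinates were taken as 1-based, as their listed length fitted in all 1547 tumor regions. Listed transcripts were matched to RefSeq genes of GRCm38.p6, 1517 by accession, 29 by symbol or synonym, and 1 not at all. The RefSeq table gives gene spans only, and exons and introns were not separated. Sequences came from its promoter windows, read by coordinates within each window.

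Shares carry Clopper-Pearson intervals at 95%. Two-sided Fisher's exact tests compared regions, with Benjamini-Hochberg adjustment over 5 contrasts of sign and over 6 contrasts between lists, at a threshold of 0.05. Regions of 1 list come from the same 6 tumor samples, so p-values describe the list and not the spread between mice. The test code was checked on simulated data. Tools were Python 3.11.15, pandas 2.3.3, numpy 2.4.6, scipy 1.17.1 and matplotlib 3.10.9.

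Named were the 10 largest differences of each sign, at any distance and within 1 kb of the TSS, the 10 regions with the most DMCs, every gene with 3 or more regions, every overlap with another list, and examples per gene list (members within 10 kb of the TSS and otherwise the 2 largest of each sign). A few regions that this rule names are not reported here. Pairs of neighbouring regions and the sequences of Tmem54, Zfp263 and Usp20 were added after the values were seen. The members, gene lists and contrasts were chosen with earlier results of these data known. Alternatives required at least 2 DMCs or 25 points, kept 1 region per gene or autosomes only, merged neighbours of 1 sign within 10 kb, or moved the limits on sites and distance.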

Additional observations from a re-analysis of the deposited data

How the results depend on the processing

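The contrasts of sign by CpG number and by TSS distance passed Fisher's exact test in all 7 alternatives each, with odds ratios of 0.345 to 0.546 and of 1.72 to 2.43. With at least 25 points per region, the contrasts by gene span (odds ratio 0.679) and by DMC number (odds ratio 0.766) no longer passed. Tumor regions then exceeded normal liver by 8.81 percentage points in the share with 10 or more sites and differed from it by -13.1 points in the share inside gene spans, neither past the threshold. The share with 10 or more sites turned round against non-tumor liver, to a difference of 13.8 points where it had been -2.67 points, because 0 non-tumor regions of that size remained. With at least 2 DMCs, the contrasts with normal liver in sites (11.8 points) and in gene spans (-11.7 points) did not pass. The DMC contrast did not pass with 1 region per gene (odds ratio 0.796). On autosomes alone the share of single DMCs against non-tumor liver (-15.6 points) and of gene spans against normal liver (-9.05 points) did not pass. The cause of these changes was not tested, and neither was the part played by the smaller number of regions. Reading gene lists by span and not by nearest TSS moved the regions in any list to 241 from 462, and 14 of 22 lists changed by more than 1.5 times. No paired analysis was possible because the lists hold no value per sample, and for the same reason no replicate could be left out.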
